A study of Mus musculus with 17 samples.

Results

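The transcripts of haemoglobin and of 2 enzymes of the red blood cell were followed across the hearts of the study. The members were taken by symbol from the deposited table and are 6 of its 21798 genes, namely the adult alpha globins Hba-a1 and Hba-a2, the adult beta globins Hbb-bs and Hbb-bt, Alas2 and Bpgm. All 6 passed the filter on low values, and none was at 0 in any library. They were chosen because of their levels in these libraries, so their levels and group differences are given as descriptions. Their calls in a fit over all genes are counted beside the share of all genes called, and nothing is read from those counts.

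Haemoglobin is a tetramer of alpha and beta globin chains, each of which holds a haem group that binds oxygen. Alas2 encodes the red cell form of the enzyme that begins haem synthesis, and Bpgm encodes bisphosphoglycerate mutase, whose product binds haemoglobin and lowers its hold on oxygen. Mature mammalian red cells have no nucleus, and the globin mRNA carried in blood lies largely in reticulocytes, the youngest circulating red cells.

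Male C57Bl6/J mice, aged 7 to 8 weeks at surgery, underwent transverse aortic constriction (TAC), in which a suture narrows the aorta and loads the left ventricle with pressure, or a sham operation without ligation. From 1 week after surgery the mice received 6 oral doses of 29P at 50 µg/kg, or saline vehicle (Veh) in equal volume. 29P is an oral prodrug of an RGD mimetic, a class of compounds that bind integrins. Left ventricular apex was taken 3 weeks after surgery from hearts that had been drained of blood, and polyA RNA was sequenced with 1 library per mouse in 3 TAC Veh, 5 Sham Veh, 6 TAC 29P and 3 Sham 29P hearts, named here by the S numbers of the labels. Narrowing the aorta of a young mouse is an acute load, and the apex is 1 part of the ventricle. The study left out libraries with few reads and a TAC Veh library that grouped with sham hearts. That library is not analysed here, and its removal bears on every statement below that the TAC Veh and Sham Veh ranges did not overlap.

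Values are read counts scaled to a total of 1000000 per library (CPM), and the depth estimated from their smallest steps was about 14200000 to 23800000 reads per library, with the lowest in S14 (Sham 29P). Cardiomyocyte markers summed to 32029 CPM or more in every library. Myl7, the atrial myosin light chain, stood at 335 CPM in S18 (TAC 29P), 895 in S19 and 723 in S20 (both Sham Veh), and at 1.002 CPM or less in the other 14 libraries, so atrial transcripts were present in these 3 libraries. Transcripts of mitochondrial genes took from 23.6% of all reads in S2 (TAC Veh) to 40.01% in S14, which also had the most genes listed at 0, with 3554.

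The 4 globin genes lie in pairs of near-identical copies, and the sequences below show how little separates the copies. In the mm10 genome with GENCODE vM21 annotation, Hba-a1 spans chr11:32283511-32284465 and Hba-a2 spans chr11:32296489-32297298, both on the plus strand, while Hbb-bs spans chr7:103826534-103828096 and Hbb-bt spans chr7:103812524-103813996, both on the minus strand. The coding sequences of Hba-a1 and Hba-a2, of 429 bases each, differed at 1 base (C381T, counted from the A of the start codon, Hba-a1 first). Those of Hbb-bs and Hbb-bt, of 444 bases each, also differed at 1 base (C417T, Hbb-bs first). The 41 bases around each difference are given with the differing base in capitals.
Hba-a1: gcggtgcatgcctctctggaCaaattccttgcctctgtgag
Hba-a2: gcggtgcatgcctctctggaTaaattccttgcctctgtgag
Hbb-bs: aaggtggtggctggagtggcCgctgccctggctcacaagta
Hbb-bt: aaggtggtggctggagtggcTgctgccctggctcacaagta
Of all stretches of 75 bases, 62.2% of those in the Hba-a1 transcript also occurred in Hba-a2, and 64.3% of those in the Hbb-bs transcript also occurred in Hbb-bt. The counting rule for reads that fit both copies is not given in the sources used here, so the split between the copies of a pair is uncertain, and the sum over the 4 genes was used for the haemoglobin level.

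The 150 bases before the RefSeq start site of each gene (GRCm38.p6) were examined because the 6 transcripts varied together across libraries. The windows of Hba-a1 and Hba-a2 shared an unbroken run of 147 bases, so 1 of the 2 is shown. In contrast, Hbb-bs and Hbb-bt shared a run of at most 14 bases there. The windows, each written towards its gene, are Hba-a2 at chr11:32296342-32296491 (plus strand), Hbb-bs at chr7:103827929-103828078 (minus), Hbb-bt at chr7:103813924-103814073 (minus), Alas2 at chrX:150547267-150547416 (plus) and Bpgm at chr6:34476206-34476355 (plus). Capitals mark the motif CACCC, the motif CCAAT, the motif TATAA and the motif GATAA, on either strand, so that their reverse complements are marked too, and no match overlapped another.
Hba-a2: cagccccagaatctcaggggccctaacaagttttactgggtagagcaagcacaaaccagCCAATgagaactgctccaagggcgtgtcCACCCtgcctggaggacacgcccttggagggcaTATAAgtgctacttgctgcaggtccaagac
Hbb-bs: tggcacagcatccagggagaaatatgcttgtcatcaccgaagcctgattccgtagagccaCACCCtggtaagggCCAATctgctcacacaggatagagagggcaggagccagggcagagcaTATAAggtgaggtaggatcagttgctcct
Hbb-bt: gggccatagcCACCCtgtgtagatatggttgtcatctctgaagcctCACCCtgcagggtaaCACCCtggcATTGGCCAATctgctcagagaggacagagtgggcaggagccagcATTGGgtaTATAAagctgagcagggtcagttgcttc
Alas2: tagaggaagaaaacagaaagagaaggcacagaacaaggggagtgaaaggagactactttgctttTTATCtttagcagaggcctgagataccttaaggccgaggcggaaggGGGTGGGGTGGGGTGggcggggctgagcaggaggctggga
Bpgm: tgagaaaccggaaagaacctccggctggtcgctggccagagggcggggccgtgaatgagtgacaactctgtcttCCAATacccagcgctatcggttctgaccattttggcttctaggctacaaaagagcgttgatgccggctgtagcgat
The motif CACCC, the motif CCAAT and the motif TATAA were all present in each of the 4 globin windows, compared with 1.096% of all 32851 windows of the same length before RefSeq starts. Taken singly, CACCC occurred in 37.4% of all windows, CCAAT in 24.5% and TATAA in 14.2%. TATAA began 27 to 30 bases before the start in the globin genes and was not found in the Alas2 or Bpgm window. The Alas2 window held CACCC 3 times, as GGGTG, and GATAA once, as TTATC, a motif held by 13.3% of windows. The Bpgm window held CCAAT once and none of the other motifs. These are matches of letters and not measured binding.

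Haemoglobin mRNA was present in every heart. The 4 globins together took a median of 0.148% of all reads, from 0.0555% in S14 (Sham 29P) to 0.493% in S2 (TAC Veh), an 8.89-fold range. For comparison of levels between genes, CPM were divided by exon length. In Sham Veh hearts Hbb-bs stood at 1006 CPM per kb, Hba-a2 at 705, Hba-a1 at 295 and Hbb-bt at 165. Alas2 and Bpgm were far lower, at 6.61 and 6.67 CPM per kb. Myoglobin (Mb), the oxygen-binding globin of heart muscle itself, stood at 6251 CPM per kb, above all 4 haemoglobin genes.

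The plot of the 6 transcripts by group shows that haemoglobin was highest in TAC Veh hearts. Summed over the 4 genes, the level was 3760 ± 1023 CPM in TAC Veh (SD, n = 3), 1939 ± 1144 in TAC 29P (n = 6), 1598 ± 630 in Sham Veh (n = 5) and 1232 ± 593 in Sham 29P (n = 3). The last 3 groups overlapped in range, with sums from 1027 to 4118 CPM in TAC 29P, from 1009 to 2438 in Sham Veh and from 555 to 1663 in Sham 29P. In tissue RNA, fewer red cells and less globin RNA per red cell cannot be told apart.

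**Figure D1:**
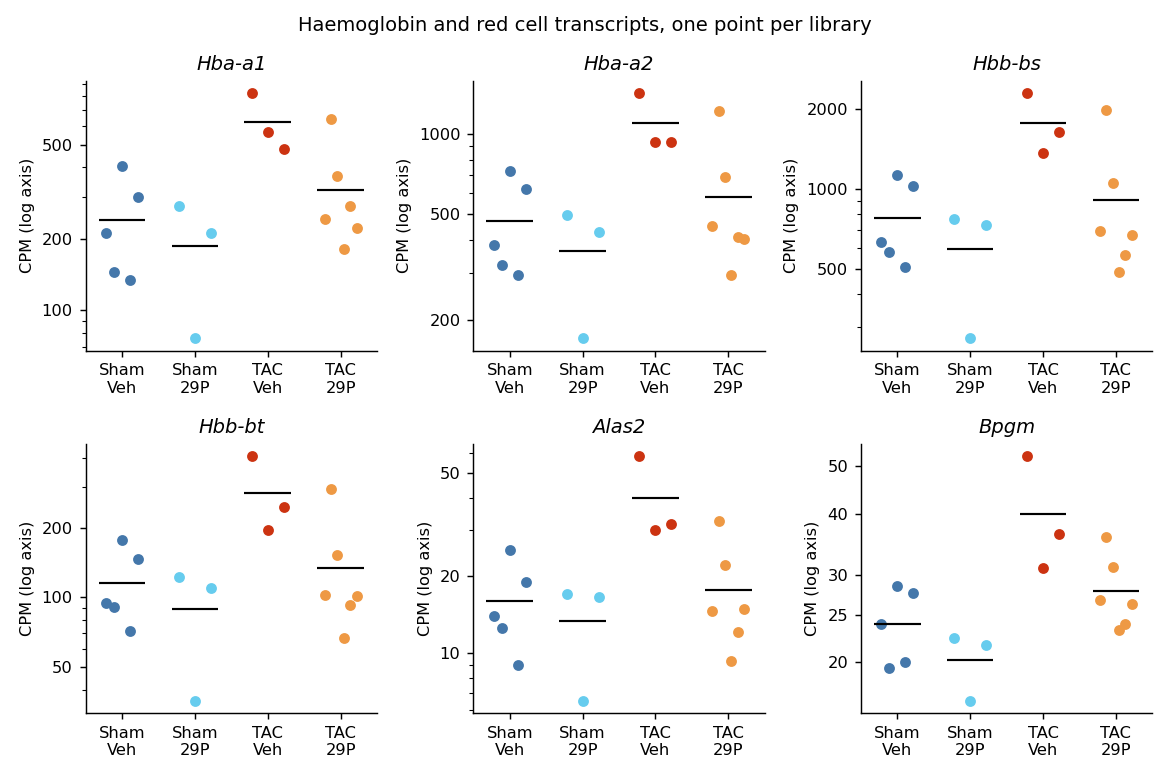
Level of each of the 6 transcripts in CPM (log axis) by group, with 1 point per library and a bar at the group mean. The 3 TAC Veh libraries lie above all 5 Sham Veh libraries in every panel, and 1 TAC 29P library, S3, lies among the TAC Veh libraries, as S8 does for Bpgm.

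Among the alpha globins, Hba-a1 stood at 211, 145, 405, 134 and 301 CPM in the Sham Veh libraries S5, S6, S13, S19 and S20, and at 275, 75.9 and 211 CPM in the Sham 29P libraries S4, S14 and S15. In the TAC Veh libraries S2, S12 and S16 it stood at 823, 564 and 480 CPM. The 6 TAC 29P libraries ranged from 181 CPM in S9 through a median of 259 to 642 in S3. Thus every TAC Veh library lay above every Sham Veh library, by 1.47 on the log2 scale between the means (SE 0.44, 2.77-fold), and 5 of 6 TAC 29P libraries lay below every TAC Veh library. Hba-a2 read 384, 321, 728, 295 and 623 CPM in Sham Veh, 494, 171 and 428 in Sham 29P and 1419, 932 and 934 in TAC Veh, in the same order of libraries. Its TAC 29P range was 296 to 1215 CPM with a median of 429, and its order of libraries was close to that of Hba-a1. The mean log2 difference of Hba-a2 between TAC Veh and Sham Veh was 1.29 (SE 0.42).

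Hbb-bs, the more abundant beta globin, stood at 630, 577, 1129, 508 and 1018 CPM in Sham Veh and at 771, 273 and 729 CPM in Sham 29P. It read 2284, 1361 and 1638 CPM in TAC Veh, and from 483 through a median of 681 to 1969 CPM in TAC 29P. The groups TAC Veh and Sham Veh did not overlap, with a mean log2 difference of 1.23 (SE 0.41, 2.35-fold). The minor beta globin Hbb-bt read 94.5, 90.6, 176, 71.3 and 146 CPM in Sham Veh, 123, 35.7 and 110 in Sham 29P, and 407, 194 and 245 in TAC Veh. Its TAC 29P libraries ranged from 66.5 to 292 CPM with a median of 101. The mean log2 difference of Hbb-bt between TAC Veh and Sham Veh was 1.29 (SE 0.45), again without overlap.

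Alas2, which supplies haem to the globins in red cell precursors and lies at chrX:150547375-150570638, showed a difference of similar size. It stood at 13.9, 12.5, 25.2, 9.02 and 18.9 CPM in Sham Veh, at 16.95, 6.50 and 16.6 in Sham 29P, and at 58.3, 30.04 and 31.7 in TAC Veh. The TAC 29P libraries ranged from 9.28 through a median of 14.7 to 32.7 CPM. TAC Veh lay 1.35 above Sham Veh on the log2 scale (SE 0.41, 2.56-fold), and the 2 groups did not overlap.

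Bpgm, at chr6:34476207-34505613, showed the smallest differences of the 6. It read 23.9, 19.5, 28.6, 20.1 and 27.6 CPM in Sham Veh, 22.5, 16.7 and 21.6 in Sham 29P, and 52.3, 31.0 and 36.3 in TAC Veh. The TAC 29P libraries ranged from 23.3 through a median of 26.5 to 35.8 CPM. TAC Veh lay 0.72 above Sham Veh (log2, SE 0.19, 1.65-fold), without overlap. Its standard deviation of log2 CPM within groups, 0.27, was near the median of 0.27 over 14054 genes with a mean CPM of at least 1, whereas those of the 4 globins and Alas2 lay between 0.63 and 0.70, wider than 93.5% or more of these genes.

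With limma, all 6 transcripts were past an adjusted p of 0.05 in TAC Veh against Sham Veh, where 22.5% of 16218 genes tested were called higher, and 27.6% of genes had every TAC Veh library above every Sham Veh library. Since the 6 were chosen on this contrast, nothing is read from that count. The median log2 difference of all genes was itself 0.35 in this comparison, and 0.01 after scaling by the trimmed mean of M-values (TMM). After TMM scaling the summed globins were still higher in all 3 TAC Veh libraries than in all 5 Sham Veh libraries, with a log2 difference of 0.96 (1.94-fold), whereas 2 of 3 TAC Veh libraries stood above all Sham Veh libraries for Bpgm, with a difference of 0.39, and for Hbb-bt.

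The second question was how 29P-treated hearts compared under pressure load. In TAC 29P against TAC Veh the mean log2 of the summed globins was lower by 1.09 (2.13-fold). Taken as the log2 of the group mean CPM, the difference was -0.956. The mean log2 differences of single transcripts were -1.05 for Hba-a1, -1.06 for Hba-a2, -1.11 for Hbb-bs, -1.17 for Hbb-bt, -1.25 for Alas2 and -0.50 for Bpgm. For each globin and Alas2, 5 of 6 TAC 29P libraries lay below all 3 TAC Veh libraries, and for Bpgm 4 of 6 did. The exception was S3, whose summed globins of 4118 CPM lay between the 4933 CPM of S2 and the 3296 CPM of S16. With S3 left out, a choice made after its values were seen, the groups did not overlap for the globins and Alas2. With all libraries kept, 0.987% of all genes had every TAC 29P library below every TAC Veh library. This share was not computed without S3. No gene of the 16218 was past an adjusted p of 0.05 in this comparison with limma (0% in each direction), and all 6 transcripts were past an unadjusted p of 0.05 in the lower direction, where 0.931% of genes were; the 6 were chosen on this contrast too, and nothing is read from it.

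In sham-operated hearts the 29P and Veh libraries overlapped. The log2 difference of the summed globins between Sham 29P and Sham Veh was -0.44, and 1 of 3 Sham 29P libraries, S14, lay below all Sham Veh libraries for each of the 6 transcripts. Without S14 the difference was 0.06. None of the 6 was past an adjusted or unadjusted p of 0.05, with 0.00617% of genes lower at the adjusted threshold and 5.89% at the unadjusted one. S14 was also the library with the fewest reads, and its myoglobin level of 6267 CPM was the lowest of the 17; the part of these in its globin level was not tested.

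Between TAC 29P and Sham 29P hearts the summed globins differed by 0.64 on the log2 scale (1.56-fold), and 2 of 6 TAC 29P libraries, S3 and S8, exceeded all 3 Sham 29P libraries. Bpgm was higher in all 6 TAC 29P libraries than in all 3 Sham 29P libraries, by 0.46, as were 25% of all genes; after TMM scaling 3 of 6 were, with a difference of 0.09. None of the 6 transcripts was past the adjusted threshold, where 31.4% of genes were higher, and 1, Bpgm, was past the unadjusted one, where 43.5% were; nothing is read from this count either. This comparison shares the TAC 29P libraries with the one before, and TAC 29P and Sham Veh hearts were each compared with TAC Veh hearts, so the differences are not independent of each other.

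The proportions of the 4 globins varied far less than their levels. Within each pair the ratio also depends on how reads that fit both copies were counted, which is not known. The ratio of alpha to beta globin CPM was 0.835 ± 0.083 (SD, n = 17), from 0.699 in S6 (Sham Veh) to 1.05 in S11 (TAC 29P). Hba-a1 stood at 0.537 ± 0.062 of Hba-a2, with its lowest ratio in S14 and its highest in S11. Hbb-bt stood at 0.150 ± 0.011 of Hbb-bs, with its lowest ratio in S14 and its highest in S2. By group the alpha to beta ratio was 0.785 ± 0.066 in Sham Veh, 0.807 ± 0.050 in Sham 29P, 0.849 ± 0.106 in TAC Veh and 0.883 ± 0.085 in TAC 29P, and the ranges of the 4 groups overlapped. In the same order the Hba-a1 to Hba-a2 ratio was 0.499 ± 0.052, 0.498 ± 0.056, 0.566 ± 0.047 and 0.573 ± 0.058, also with overlapping ranges.

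**Figure D2:**
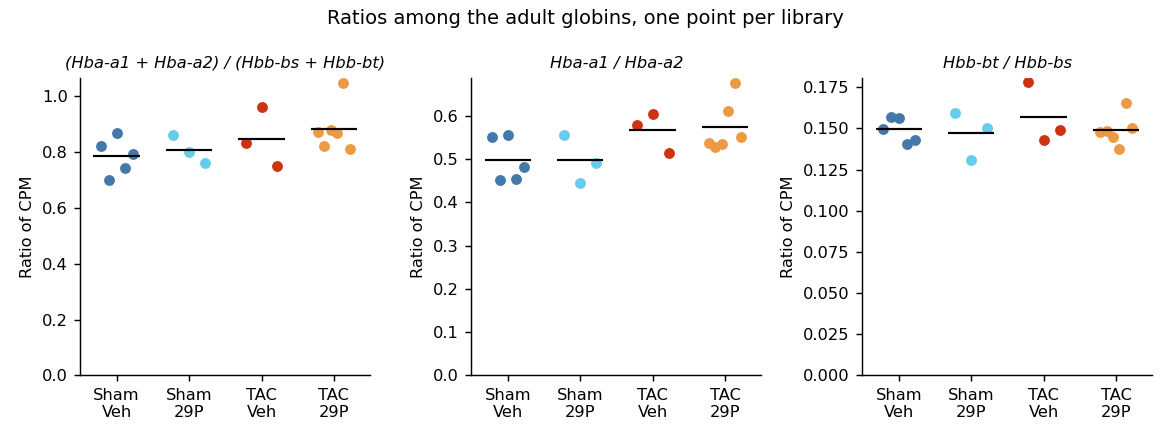
Ratio of CPM (linear axis from 0) of alpha to beta globins, of Hba-a1 to Hba-a2 and of Hbb-bt to Hbb-bs by group, with 1 point per library and a bar at the group mean. The ratios vary over a far narrower range than the 8.89-fold range of the globin sum.

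Alas2 followed the globins in proportion, at 10.02 ± 1.06 CPM per 1000 CPM of globin (SD, n = 17), from 7.94 in S3 (TAC 29P) to 11.8 in S2 (TAC Veh). Bpgm did not, at 15.9 ± 5.36 CPM per 1000 CPM of globin, from 8.70 in S3 to 30.1 in S14. As the plot against the globin sum shows, Bpgm varied 3.13-fold over the libraries where the globins varied 8.89-fold. Pearson correlations of log2 CPM between the 6 transcripts over the 17 libraries lay between 0.93 and 0.99, and between 0.87 and 0.99 after subtracting group means. These points share their libraries, the depth and the scaling of each, and 2 pairs share sequence, so the values are a description.

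**Figure D3:**
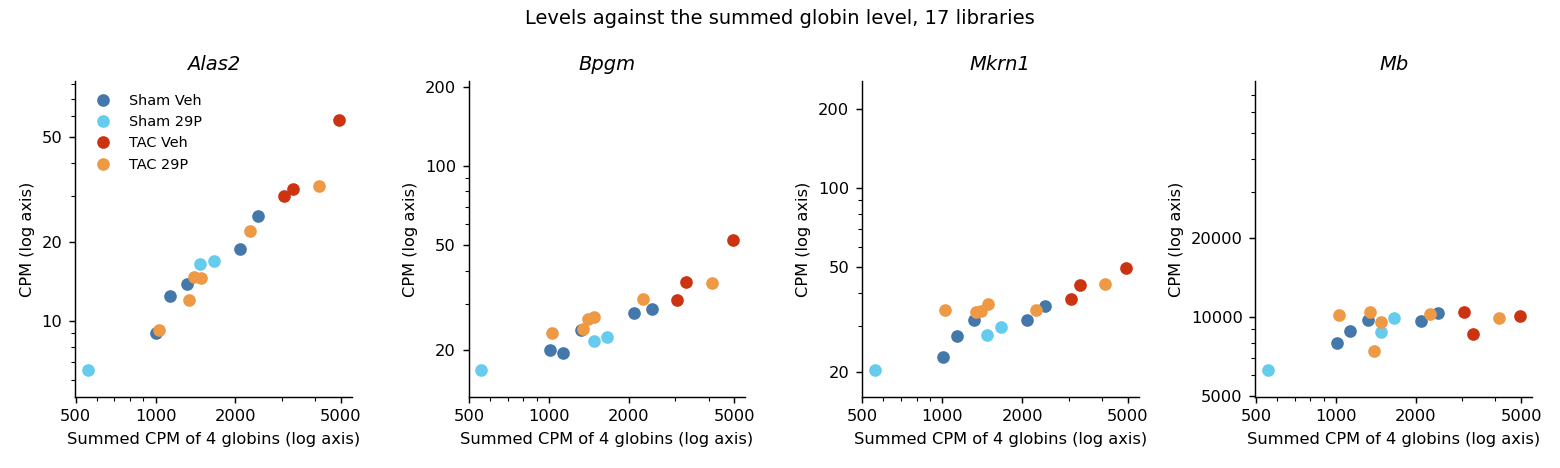
CPM of Alas2, Bpgm, Mkrn1 and Mb against the summed CPM of the 4 globins in 17 libraries coloured by group, both axes logarithmic and every vertical axis covering the same fold range. Alas2 follows the globins in proportion, Bpgm and Mkrn1 span a narrower range, and Mb stays between 6267 and 10477 CPM.

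Of other tested genes, those most like the globin sum over the 17 libraries were Mkrn1 (Pearson r = 0.87), Aldoart1, Trmt112-ps2, Parp2, Ube2l6, Ppp1r3e, Slx4ip, Fbxl12, Il34 and Gm16580 (r = 0.83), out of 14048 genes with a median r of 0.44. After subtracting group means the 10 highest included Haus7 (r = 0.90), Parp2, Gm6169, Babam2, Ubxn1, Nmt1, Fam192a, Mkrn1 and Zfpl1 (r = 0.84), and 2 genes, Parp2 and Mkrn1, were on both lists. Mkrn1, a ring finger protein, had a Spearman rho of 0.80 with the globin sum, and r = 0.80 without S2 and S3, the 2 libraries farthest from the median. By contrast, r was 0.98 for Alas2, 0.93 for Bpgm, 0.59 for Mb and 0.11 for the summed cardiomyocyte markers. The share of mitochondrial reads, which enters every CPM through the total, had r = -0.72 with the globin sum. It also separated the groups that the globins separated, at 23.6 to 27.9% in TAC Veh and 29.1 to 38.8% in Sham Veh, as did the summed endothelial markers, at 1176 to 1492 CPM and 734 to 1174 CPM. The part of either in the globin difference was not tested.

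The rest of the red cell programme was examined together with platelet, neutrophil and lymphocyte markers, through 134 genes in 9 lists. Of these, 118 were analysed here and 97 passed the filter, among them 9 platelet, 7 neutrophil and 10 lymphocyte genes. In TAC Veh against Sham Veh, 16 of the 97 were higher and 1 was lower (limma, Benjamini-Hochberg adjusted p of 0.05 or less over 16218 genes), that is 16.5% and 1.03%, against 22.5% and 1.91% of all genes. Of the higher genes, 1 was from the neutrophil list and 2 were from the lymphocyte list. The median log2 difference of the 97 was 0.35, as over all genes. Without S2, the TAC Veh library of highest globin level, 2 of these genes were higher and none was lower, and with TMM scaling 5 were higher and 4 lower.

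Among regulators and maturation genes of the red cell lineage, 3 of 14 tested rose in TAC Veh hearts, beside 22.5% of all genes called higher. Tent5c, a poly(A) polymerase, stood at 2.93 ± 1.93 CPM in Sham Veh (n = 5) and at 11.1, 6.55 and 8.05 in TAC Veh, a log2 difference of 1.76 (SE 0.43, limma adjusted p = 0.0107). Ube2l6, a ubiquitin-conjugating enzyme, stood at 12.2 ± 2.31 and at 36.4, 18.1 and 24.3 CPM, a difference of 1.07 (SE 0.23, limma adjusted p = 0.00636). Mkrn1 differed by 0.55 (SE 0.15, limma adjusted p = 0.0187). The TAC Veh libraries lay above all Sham Veh libraries for all 3 genes, as for 27.6% of all genes. With TMM scaling Tent5c and Ube2l6 stayed past the threshold, with adjusted p = 0.0250 and 0.0192, and Mkrn1 did not (adjusted p = 0.232); without S2 none of the 3 did, and Mkrn1 was also lost with a term for runs of library numbers (consecutive S numbers taken as blocks, which the labels do not call batches) and without the 3 libraries with atrial transcripts. Klf1, a transcription factor of red cell precursors, was at 0 in 8 of 17 libraries and was not tested.

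Of 12 tested genes of the red cell membrane and surface, 3 rose, beside 22.5% of all genes called higher. Slc4a1, the anion exchanger of the red cell membrane, read 0.463, 0.403, 0.856, 0.134 and 0.749 CPM in Sham Veh and 3.14, 1.37 and 1.17 CPM in TAC Veh, a log2 difference of 1.97 (SE 0.56, limma adjusted p = 0.0208), and with TMM scaling its adjusted p was 0.0625. At 1 CPM a gene rests on some 14 to 24 reads, so this level is imprecise. Rhd, a blood group protein, differed by 0.98 (limma adjusted p = 0.0184) and Dmtn, which bundles actin under the membrane, by 0.82 (limma adjusted p = 0.0290). All 3 calls were lost without S2 and with TMM scaling, and those of Rhd and Dmtn also without S12, and that of Dmtn without S6. Those of Slc4a1 and Rhd were also lost with the term for runs of library numbers. Those of Rhd and Dmtn were also lost without the 3 libraries with atrial transcripts.

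All 21 genes of haem synthesis and iron delivery, the pathway of Alas2, were tested. Their median log2 difference was 0.24 against 0.35 over all genes. Beside 22.5% of all genes called higher, 2 of the 21 rose. They were Slc25a37, the mitochondrial iron importer (0.56, SE 0.14, limma adjusted p = 0.0127), and Ireb2, an iron-regulatory RNA-binding protein (0.30, SE 0.11, limma adjusted p = 0.0491), whose difference became -0.03 under TMM scaling. The call of Slc25a37 was lost with TMM scaling too, and both calls were lost without S2. That of Ireb2 held in only 2 of 8 fits that each left out 1 library (it was lost without S2, S6, S13, S16, S19 or S20). The Ireb2 call was also lost with the term for runs of library numbers and without the 3 libraries with atrial transcripts. Fech, which inserts iron into haem, stood at 96.7 ± 13.8 CPM in Sham Veh and 114 ± 10.4 in TAC Veh, and its r with the globin sum was 0.35. Alas1, the form of the Alas enzyme found in most tissues, stood at 117 ± 32.9 and 144 ± 7.71 CPM. These 2 genes were outside the rule for naming and were picked after their values were seen.

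Among genes that clear haemoglobin and haem or handle their iron, 2 of 14 tested rose and 1 fell. Of all genes, 22.5% were called higher and 1.91% lower. Lrp1, a receptor that takes up haem bound to haemopexin, rose by 1.53 (log2, SE 0.29, limma adjusted p = 0.00308) and Trf, transferrin, by 0.74 (SE 0.20, limma adjusted p = 0.0159). Slc40a1, the iron exporter ferroportin, fell by 0.55 (SE 0.12, limma adjusted p = 0.00686). It read 19.5, 19.1, 21.9, 20.2 and 19.1 CPM in Sham Veh and 12.02, 14.1 and 14.9 in TAC Veh, so the groups did not overlap. Of all genes, 2.23% had every TAC Veh library below every Sham Veh library. The fall stayed past the threshold with TMM scaling (-0.88, adjusted p = 0.00117), and was lost without S2. The call of Trf was lost both with TMM scaling (0.40, adjusted p = 0.0915) and without S2.

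**Figure D4:**
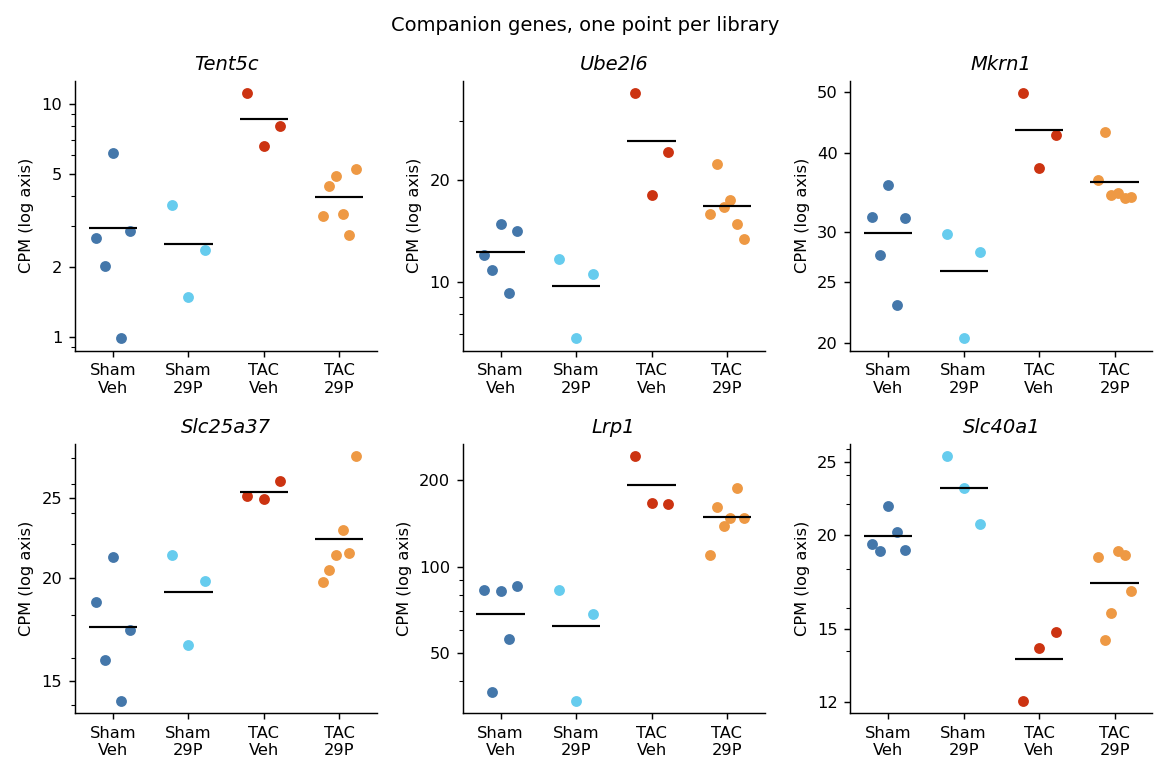
CPM (log axis) of 6 genes of the red cell and iron lists by group, with 1 point per library and a bar at the group mean. In TAC Veh libraries Tent5c, Ube2l6, Mkrn1, Slc25a37 and Lrp1 lie above all Sham Veh libraries, and Slc40a1 lies below them. Of all genes, 27.6% lie wholly above in this comparison and 2.23% wholly below.

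Of the other globins, cytoglobin (Cygb), which is made by fibroblasts and other stromal cells, rose by 1.30 in TAC Veh (log2, SE 0.22, limma adjusted p = 0.00181), and Mb, the other tested member of its list, did not pass the threshold. Among 8 genes of 2,3-bisphosphoglycerate metabolism and lower glycolysis, the route on which Bpgm acts, 2 rose, beside 22.5% of all genes called higher. They were Eno1 (0.59, limma adjusted p = 0.0429) and Minpp1 (0.38, limma adjusted p = 0.0234). Both calls were lost with TMM scaling and without S2, S12 or S16. That of Eno1 was also lost without S6, S13 or S19. The Eno1 call was lost too with the term for runs of library numbers and without the 3 libraries with atrial transcripts. The call of Cygb was kept under each of these changes.

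Transcripts of other blood cells were low, and their sums overlapped between TAC Veh and Sham Veh. Platelet markers, 12 genes, summed to 15.4 to 39.8 CPM in Sham Veh, 13.2 to 22.7 in Sham 29P, 20.9 to 31.9 in TAC Veh and 18.5 to 83.0 in TAC 29P. Neutrophil markers, 11 genes, summed to 4.04 to 12.3, 1.90 to 9.44, 8.32 to 8.80 and 5.01 to 27.6 CPM in the same order of groups. Lymphocyte markers, 14 genes, summed to 8.13 to 32.6, 6.69 to 15.4, 14.8 to 40.9 and 22.3 to 54.0 CPM. In each of these lists the highest Sham Veh sum was that of S20. The highest platelet sum was that of S18, and both libraries held atrial transcripts. The overlap of the neutrophil sums between TAC Veh and Sham Veh rested on S20, with medians of 8.33 and 4.37 CPM. S3, the TAC 29P library of highest globin level, had the highest neutrophil and lymphocyte sums of all libraries. None of 9 tested platelet genes was called in TAC Veh against Sham Veh, while the neutrophil receptor gene Csf3r (1.53, limma adjusted p = 0.0420) and the B cell gene Ighd (1.74, limma adjusted p = 0.0270) rose. Both calls were lost with TMM scaling and without S2, S12 or S19, and that of Csf3r also without S6, S16 or S20. Both were lost too with the term for runs of library numbers and without the 3 libraries with atrial transcripts. Over the 17 libraries r with the globin sum was 0.38 for platelet, 0.66 for neutrophil, 0.57 for lymphocyte and 0.64 for endothelial markers, and the part of blood left in the tissue in any of these values was not tested.

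In TAC 29P against TAC Veh none of the 97 genes was called (limma, 0 of 16218 genes called), and 2 were higher and 4 lower at an unadjusted p of 0.05, where 1.05% and 0.931% of all genes were. The lower genes included Slc4a1 (log2 difference -1.33), Tent5c (log2 difference -1.105) and Ube2l6 (log2 difference -0.61), and the higher ones were Slc40a1 (log2 difference 0.34) and Tubb1, named after their values were seen. Their limma adjusted p was 0.999998. Tent5c ranged from 2.72 to 5.22 CPM in the 6 TAC 29P libraries, below all 3 TAC Veh libraries, as did 0.987% of all genes. By contrast, Slc40a1 ranged from 14.5 to 19.05 CPM, with 1 library within the TAC Veh range. Tubb1 had 1 library listed at 0, so no fold is given.

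**Figure D5:**
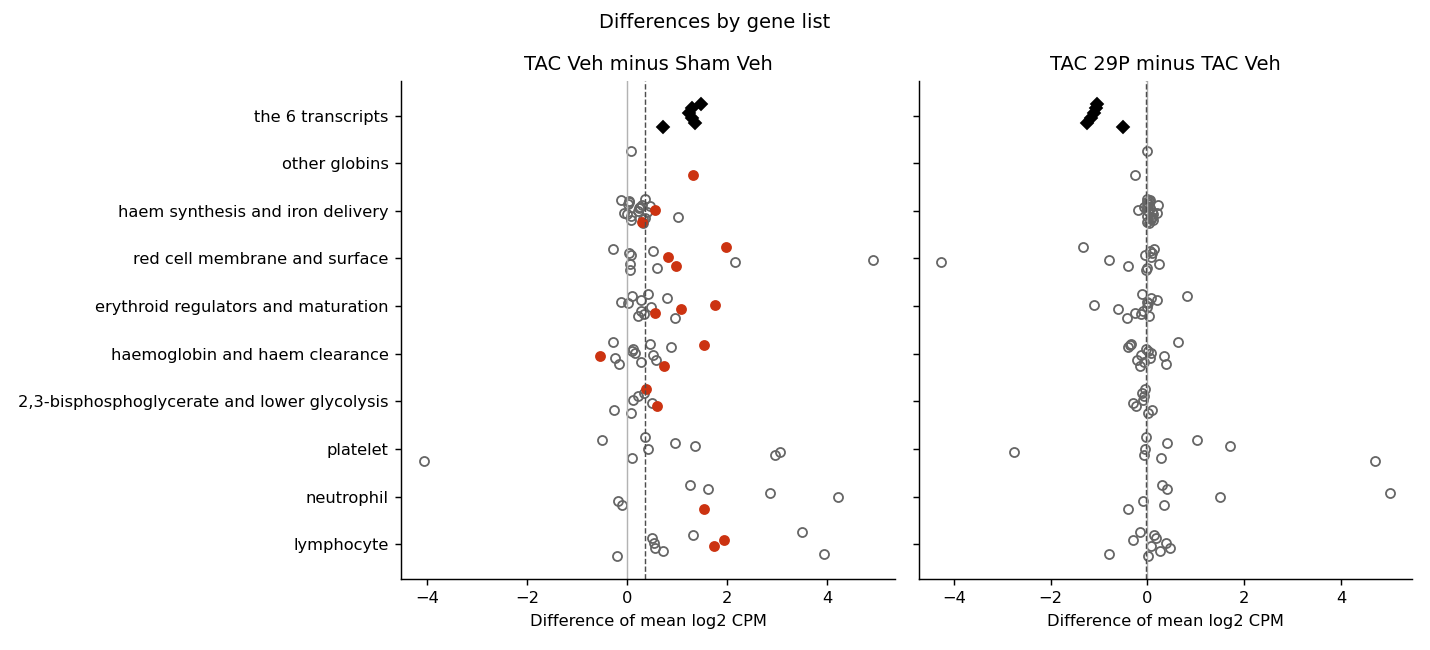
Difference of mean log2 CPM for each tested gene by list, TAC Veh minus Sham Veh on the left and TAC 29P minus TAC Veh on the right. Black diamonds are the 6 transcripts, filled red circles are genes with an adjusted p of 0.05 or less, open circles are other genes, and the dashed line is the median of all genes; the 6 transcripts lie above that median on the left and below it on the right, and some of the widest differences belong to genes with a library listed at 0, such as Tubb1.

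In Sham 29P against Sham Veh none of the 97 was called with limma, and 2 were higher and 8 lower at an unadjusted p of 0.05, where 1.6% and 5.89% of all genes were. In TAC 29P against Sham 29P, 30 were higher and 2 lower, that is 30.9% and 2.06%, against 31.4% and 1.12% of all genes. The higher genes included 7 of 10 tested lymphocyte genes, 2 of 7 neutrophil genes and 2 of 9 platelet genes. They also included Ube2l6 (0.82, limma adjusted p = 0.0148) and Mkrn1 (0.49, limma adjusted p = 0.0223). Tent5c (0.73, limma adjusted p = 0.174) and Slc4a1 (0.15, limma adjusted p = 0.847) were not among them. Epor, the erythropoietin receptor, rose by 1.61 (limma adjusted p = 0.0481) and Isg20, an RNA exonuclease, by 1.48 (limma adjusted p = 0.0135). Among iron genes Ftl1, the ferritin light chain, rose by 0.78 (limma adjusted p = 0.0114), and Slc48a1, a haem transporter, by 0.74 (limma adjusted p = 0.0121), while Slc40a1 fell by 0.42 (limma adjusted p = 0.0163). With the term for runs of library numbers 3 of the 97 were higher and none was lower, and every call named in this paragraph was lost, with adjusted p from 0.0823 (Ftl1) to 0.276 (Epor). Epor was past the threshold in 2 of 9 fits that each left out 1 library. Without S14, 6 of the 97 were higher and none was lower, and with TMM scaling 6 were higher and 4 lower.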

How the data were processed

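PolyA RNA from 17 libraries, 1 per mouse, was measured. The deposited values are CPM made by the authors, with a constant of 0.0001 added; the submitters' processing notes name STAR 2.3.7, Partek and mm10, and the counting tool, its strand setting and its rule for shared reads are not given in the sources used here. Whole reads could not be recovered, since 78.8 to 81.6% of values below 20 reads were whole multiples of 1 read within 0.02, so depth was estimated from the step size. All value columns were mapped to samples by their labels.

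Genes with a CPM of at least 0.5 in at least 3 libraries were tested on log2 of the deposited CPM with limma 3.58.1 (R 4.3.3; lmFit, eBayes with trend) over the 17 libraries, 1 mean per group, without covariates, after the code was tested on simulated data. A gene was called at a Benjamini-Hochberg adjusted p of 0.05 or less. P-values measure the spread between mice. Fold changes are differences of mean log2 values. Motifs, shared stretches and figures were computed with Python 3.11.15.

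The 6 members and all gene lists were chosen with earlier results of these data known. Named genes were, per list and comparison, up to 3 called genes in each direction by size, the most abundant blood cell genes, and the 10 genes most like the globin sum in each of 2 ways; some of these genes are not reported here. Alternatives were other scalings, constants, filters and thresholds, groups fitted alone, a term for runs of library numbers, and leaving out each library.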

Additional observations from a re-analysis of the deposited data

Results flagged for a closer look

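In 80 groups of 4 to 10 libraries tested, 3 had a library apart from the rest by Dixon's 95% limit, and chance flags about 1 in 20 groups. TAC Veh and Sham 29P, with 3 libraries each, were too small for this test, so S2 and S14 could not be flagged. Dmtn stood at 1.83 CPM in the Sham Veh library S6, where the other Sham Veh libraries read 3.04 to 3.45. Mkrn1 stood at 43.1 CPM in the TAC 29P library S3, the library of highest globin level in its group, where the others read 33.9 to 36.2. Epor stood at 0.566 CPM in the TAC 29P library S18, which holds atrial RNA, where the others read 0.950 to 1.16. For none of the 33 named companion genes did the effect of TAC differ between 29P and Veh hearts past the adjusted threshold (limma interaction term, smallest adjusted p = 0.998), and 2 were past the unadjusted one.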

How the results depend on the processing

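The globin differences kept their direction under every scaling tried, under the mean of CPM in place of log2 CPM, with a term for runs of library numbers and without the 3 libraries holding atrial RNA (chosen after seeing the data). Leaving out 1 library gave 1.08 to 1.46 (log2) for TAC Veh minus Sham Veh, -1.34 to -0.88 for TAC 29P minus TAC Veh, 0.14 to 0.93 for TAC 29P minus Sham 29P, and -0.73 to 0.06 for Sham 29P minus Sham Veh, the last crossing 0 without S14.

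Counts of companion genes moved more. For TAC Veh minus Sham Veh, 31 higher and 2 lower were past an unadjusted p of 0.05, TMM scaling gave 5 and 4, and dropping the 3 libraries with atrial RNA gave 10 higher; leaving out 1 library gave 2 to 22 higher and 0 to 2 lower, with 2 and 0 without S2, when 15 of 17 named calls were lost. The difference of Ireb2 reversed to -0.0318 with TMM. The unadjusted threshold gave 2 higher and 4 lower for TAC 29P minus TAC Veh, and 2 and 8 for Sham 29P minus Sham Veh, where leaving out 1 library gave 0 to 0 in each direction. For TAC 29P minus Sham 29P, TMM gave 6 and 4, the term for runs of library numbers 3 and 0, and no filter on low values 1 lower; leaving out 1 library gave 6 to 45 higher (6 without S14, 17 without S15, 19 without S3) and 0 to 2 lower. The cause was not tested.

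Limits also include groups of 3, depth near 1 CPM and the unknown counting rule. No paired analysis was possible because the groups share no library numbers.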
